A study of Mus musculus with 36 samples.

Results

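The genes examined here are 39 mouse genes that build or regulate epithelial cell junctions and cell polarity, read in cultured nephron progenitor cells (NPCs) given different doses of a Wnt pathway activator. They were chosen by name, with earlier results of these data known. The symbols cover cadherins and Epcam, claudins, other tight junction proteins, and epithelial transcription and splicing regulators. They also cover simple keratins, the matriptase protease with its inhibitors, apical and sorting proteins, and polarity complex proteins. All 39 were found by Ensembl identifier, out of 25760 genes listed for wild-type NPCs, 26863 for the β-catenin removal experiments and 26472 for the Tcf/Lef experiment.

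The study asked how NPC responses depend on the strength of canonical Wnt signalling, and used bulk RNA-seq of primary NPCs from E16.5 kidneys of Swiss Webster or C57Bl/6 mice, sexes not distinguished, cultured in a defined expansion medium. CHIR, an inhibitor of the kinase GSK3 that stabilises β-catenin, was given for 24 h at 0 µM (no CHIR), 1.25 µM (low CHIR, the dose of progenitor expansion) or 5 µM (high CHIR, the inducing dose). Wild-type NPCs gave 3 libraries at each dose. NPCs homozygous for a conditional β-catenin allele (labelled B-catenin_c_c) were transfected with Cre mRNA or left without Cre, and Cas9-eGFP NPCs received a GFP guide RNA as control or guides against Ctnnb1, the gene of β-catenin, with 2 libraries for each of these 4 arms at low and at high CHIR. In a separate experiment Cas9-eGFP NPCs received the GFP guide, with 3 libraries at each dose, or guides against Tcf7l1, Tcf7l2, Tcf7 and Lef1 together (QKO), with 2 libraries at low and 3 at high CHIR. Per the methods, all cells were seeded in low CHIR, the knockout period in low CHIR lasted 24 h for β-catenin and 48 h for Tcf/Lef before the 24 h of dosing, and transfected cells were sorted on co-transfected mCherry. The sorted cells are pools of edited and unedited alleles and not clones. NPCs were enriched at isolation by depleting other cells with antibodies that included anti-CD326, which binds Epcam, so the product of a gene on the list was itself used to select the starting cells.

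A polarised epithelium is held together near its apical side by tight junctions, whose strands are built from claudins, occludin and tricellulin and anchored by ZO and cingulin proteins, and below them by adherens junctions built on E-cadherin. The Crumbs, Par and Scribble complexes place these junctions between the apical and basolateral surfaces. In the kidney, mesenchymal NPCs respond to Wnt by forming a pretubular aggregate and then an epithelial renal vesicle, and many genes of this list are used as markers of that change.

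Values are normalized counts, which are reads per gene divided by a size factor for each library, and a level per kilobase is the same value divided by exon length. The libraries held 13651129 to 76071568 reads on genes in wild type, 14537850 to 27838106 in the β-catenin experiments and 13089780 to 20152719 in the Tcf/Lef experiment. The 3 tables were normalized separately, so tests were made only within a table and levels are not compared between them. A gene was tested when its mean over the table was at least 10 normalized counts, which all 39 genes reached in wild type, 33 in the β-catenin table and 30 in the Tcf/Lef table. A gene is called higher or lower when its limma p-value, adjusted over all genes tested, is under 0.05 and its log2 difference is at least 1 between high and low CHIR, or at least 0.5 in the other comparisons. The labels do not say whether replicates were separate cultures or litters, so the p-values measure only the spread between these libraries. The wild-type high-CHIR replicate 3 stood apart from the other 2 libraries of its group, with Lef1 at 3811, 4197 and 9125 normalized counts in replicates 1 to 3 and Gata3, a marker of ureteric and distal nephron epithelium, at 4283, 4098 and 623.

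Reads of a targeted gene do not show whether its protein was made. Ctnnb1 stood at 1652 and 1039.6 normalized counts with Ctnnb1 guides against 2521 and 3397 with the GFP guide in low CHIR, and at 1629.9 and 1270.1 against 2632 and 2701 in high CHIR. Total Ctnnb1 reads were 2254 and 2583 with Cre and 2423 and 2207 without Cre in high CHIR, and gene-level counts do not separate the deleted exons. In the QKO at high CHIR, Lef1 was at 255, 441 and 513 against 1504, 2743 and 1144 and Tcf7 at 109.5, 179.7 and 127 against 534, 535 and 268, while Tcf7l1 was at 602, 539 and 736 against 612, 486 and 591.

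The 250 bases upstream of annotated starts were read for the genes of the list, after many of these genes had been seen to move together with CHIR dose. The repressor genes Snai2 and Zeb1 fell at high CHIR. The repressor gene Snai1 had positive differences in the controls of the β-catenin experiments, not called (log2 differences 1.27 and 1.38, limma adjusted p 0.241 and 0.221). Whether these repressors act on the list was not tested. RefSeq (GRCm38.p6) held 40 such windows for 29 of the 39 genes. The E-box CACCTG, the sequence bound by the Snail and Zeb repressors, was searched on both strands together with its reverse complement CAGGTG, and was present in 20 of the 40 windows and in 18 of the 29 genes. It was in 11 of the 13 genes with a window that were called higher between high and low CHIR in wild type, in 7 of the 15 not called and in 0 of the 1 called lower. It was present in 17.2% of all 32851 RefSeq promoter windows of the same length. Base composition differed too, since the median GC content was 60.6% in the windows of the list and 52.4% in all windows, and among the 8236 windows in the middle GC range of the list (55.5% to 66.2%) the E-box was present in 20.8%. The Tcf/Lef letters CTTTGAT or CTTTGAA, on either strand, were in 0 of the 40 windows against 7.48% of all windows, and the GRHL letters AACCGGTT were in 0 of 40 against 0.116%. Neither can overlap the E-box. No test was made on these shares, and a match, or its absence, says only which letters stand in this window. Windows are shown for 4 genes called higher at high CHIR that hold the E-box and for Cldn5, the only gene of the list called lower there, which holds none. Each is written 5′ to 3′ on the gene's own strand and ends at the base before the annotated start, with the E-box letters in capitals.
Lsr, minus strand, chr7:30973470-30973719, E-box beginning 249, 219, 151 and 69 bases before the start: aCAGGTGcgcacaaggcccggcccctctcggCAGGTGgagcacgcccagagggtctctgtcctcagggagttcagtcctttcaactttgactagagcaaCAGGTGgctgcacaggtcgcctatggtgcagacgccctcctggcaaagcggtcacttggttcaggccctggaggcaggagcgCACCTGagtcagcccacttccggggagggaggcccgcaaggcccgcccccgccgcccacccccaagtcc
Spint2, minus strand, chr7:29281978-29282227, E-box 74, 55 and 9 bases before the start: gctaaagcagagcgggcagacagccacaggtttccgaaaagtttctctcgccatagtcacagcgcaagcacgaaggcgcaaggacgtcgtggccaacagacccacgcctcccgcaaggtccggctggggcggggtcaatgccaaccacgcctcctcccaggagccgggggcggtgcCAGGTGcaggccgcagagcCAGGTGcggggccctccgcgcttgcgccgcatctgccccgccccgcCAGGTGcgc
Epcam, plus strand, chr17:87635729-87635978, E-box 187 and 19 bases before the start: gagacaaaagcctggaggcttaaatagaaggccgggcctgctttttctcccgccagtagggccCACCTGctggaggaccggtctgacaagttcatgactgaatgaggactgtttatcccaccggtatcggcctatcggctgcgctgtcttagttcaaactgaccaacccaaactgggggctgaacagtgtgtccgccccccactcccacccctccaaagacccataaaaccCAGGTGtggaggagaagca
Pard6b, plus strand, chr2:168080754-168081003, E-box 141 and 86 bases before the start: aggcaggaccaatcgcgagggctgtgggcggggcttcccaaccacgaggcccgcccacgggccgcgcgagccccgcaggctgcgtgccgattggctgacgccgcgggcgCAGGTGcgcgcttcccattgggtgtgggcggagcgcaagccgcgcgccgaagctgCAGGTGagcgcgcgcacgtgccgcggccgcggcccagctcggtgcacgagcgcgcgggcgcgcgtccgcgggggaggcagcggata
Cldn5, plus strand, chr16:18776597-18776846, no E-box: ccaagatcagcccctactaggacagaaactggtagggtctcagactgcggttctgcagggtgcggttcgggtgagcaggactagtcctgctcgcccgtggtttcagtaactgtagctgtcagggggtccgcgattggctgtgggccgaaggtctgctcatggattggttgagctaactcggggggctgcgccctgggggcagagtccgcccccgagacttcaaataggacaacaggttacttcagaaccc

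Before high CHIR the list was already transcribed, unevenly. In wild-type NPCs at low CHIR the highest levels per kilobase were those of Cldn9 (836 ± 195 normalized counts per kilobase, SD, n = 3), F11r (736 ± 191), Cldn6 (391 ± 158), Cldn7 (335 ± 141) and Krt18 (280.4 ± 139), and neighbours in this order other than F11r and Cldn6 lay within 1 SD of each other. F11r encodes junctional adhesion molecule A, and Krt18 is a keratin of simple epithelia. The lowest were Krt7, Esrp1, Marveld3, Crb2 and Grhl2, between 1.49 and 2.41 normalized counts per kilobase. At high CHIR, Cldn6 (3580 ± 2182) and Cldn7 (3134 ± 2209) came ahead of Cldn9 (1956 ± 879), with wide SDs, since replicate 3 was the lowest for all 3 genes. Cldn6 and Cldn9 are adjacent genes on chromosome 17 that point towards each other, with Cldn6 at 23679249 to 23682446 on the plus strand and Cldn9 at 23682584 to 23684026 on the minus strand (GRCm38). Their exons do not overlap in the annotation.

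High CHIR raised 15 of the 39 genes above low CHIR in wild-type NPCs and lowered 1, where 3.99% of the 17411 genes tested were called higher and 3.61% lower. Since the list was chosen with earlier results of these data known, this comparison with all genes is not independent of the data. The 15 were Epcam, Cldn6, Cldn7, Ocln, Marveld2, Lsr, Krt18, Krt19, St14, Spint1, Spint2, Prom1, Crb3, Pard6b and Patj, and Cldn5 was lower. The median log2 difference of the 39 genes was 1.15, against 0.01 over all genes tested, and 33 of the 39 had a positive difference. In these bulk libraries a larger share of epithelial cells and more RNA per cell cannot be told apart. The wild-type heatmap shows the whole list library by library.

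**Figure D1:**
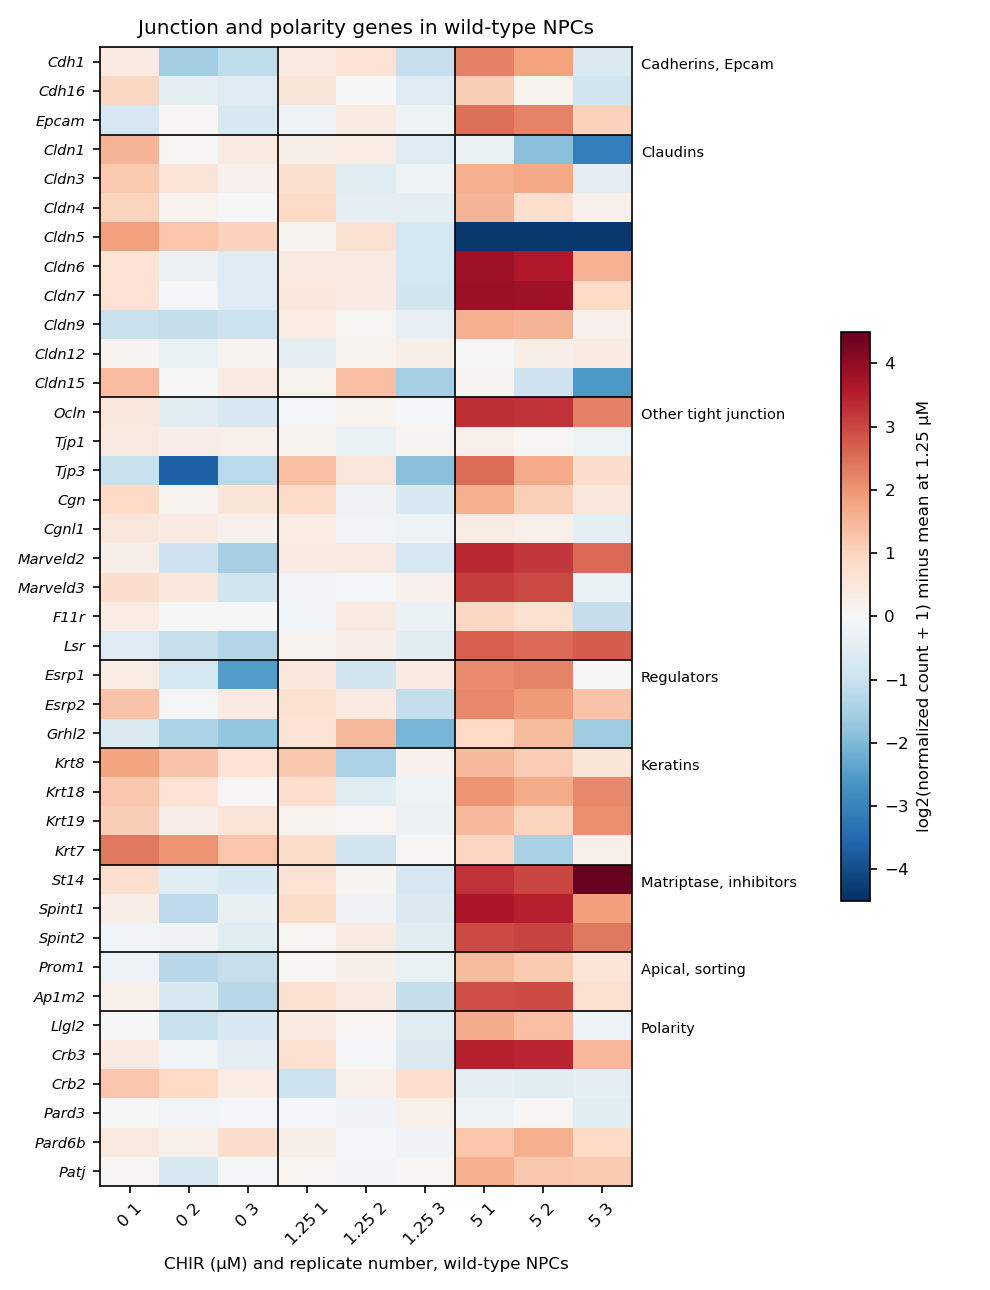
Log2(normalized count + 1) of each of the 39 genes (rows, grouped by role) in each of the 9 wild-type libraries (columns: no, low and high CHIR), minus the gene's mean at low CHIR. Red is above and blue below that mean, and most rows turn red in the high-CHIR columns, less so in replicate 3, while Cldn5 turns blue.

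Among the adherens and adhesion genes, 1 of 3 was called. Epcam, an adhesion molecule of most epithelia, had 137, 199 and 135 normalized counts in the low-CHIR libraries and 873, 734 and 322 in the high-CHIR libraries. The groups did not overlap, with a log2 difference of 1.93 (SE 0.38, limma adjusted p = 0.0086). Cdh1, which encodes E-cadherin, had 214, 256 and 77.8 at low and 791, 572 and 104 at high CHIR. Replicates 1 and 2 at high CHIR were above every low-CHIR library and replicate 3 was inside that range, and the log2 difference of 1.15 (SE 0.77, limma adjusted p = 0.408) did not pass. Cdh16, kidney-specific cadherin, had 602, 411 and 273 at low and 885, 454 and 216 at high CHIR, so the groups overlapped and the log2 difference was 0.12 (SE 0.53, limma adjusted p = 0.922).

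Of the 9 claudins, 2 rose and 1 fell. Cldn6, a claudin of early embryonic epithelia, went from 836, 825 and 358 normalized counts at low CHIR to 8877, 7729 and 1876 at high CHIR, with no overlap and a log2 difference of 3.01 (SE 0.57, limma adjusted p = 0.00766). Cldn7, a claudin of many transporting epithelia, had 838, 782 and 338 at low and 8639.5, 8537 and 1136 at high CHIR, with a log2 difference of 2.85 (SE 0.71, limma adjusted p = 0.0285). For both genes replicate 3 was far below replicates 1 and 2, and for Cldn7 the call held without that library but not without any 1 of the other 5 (limma adjusted p 0.0596 to 0.121, log2 difference 2.36 to 3.09). Cldn5, best known from endothelium and podocytes, had 72.4, 46.8 and 40.2 normalized counts without CHIR, 21, 31.3 and 10.8 at low CHIR and 0 in all 3 high-CHIR libraries. Taking 3 reads per library as the floor, its level at high CHIR was at least 6.1-fold lower than at low CHIR (limma adjusted p = 0.000674) and at least 15.4-fold lower than without CHIR. Defining endothelial genes were near 0 in these libraries (Cdh5 0 to 5.1 without CHIR, 2.4 to 15.8 at low and 0 to 6.72 at high CHIR, Tie1 at most 2.04 normalized counts), while the summed level of the 8 endothelial markers was 833 to 905 without CHIR, 524 to 699 at low and 487 to 1261 at high CHIR, carried by Egfl7, Plvap and Tek. Of the other 6 claudins, Cldn9 came nearest, with 1482, 1216 and 921 at low and 3706, 3390.5 and 1368 at high CHIR and a log2 difference of 1.12 (SE 0.33, limma adjusted p = 0.0586). Cldn1, Cldn3, Cldn4, Cldn12 and Cldn15 had log2 differences from -1.75 (Cldn1) to 0.98 (Cldn3), none past the test.

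Of the other tight junction genes, 3 of 9 rose. Ocln, occludin, had 55.2, 65.5 and 55.1 normalized counts at low and 585, 561 and 283 at high CHIR. The 3 high-CHIR libraries were all above the highest low-CHIR library, and the log2 difference was 2.93 (SE 0.38, limma adjusted p = 0.000885). Marveld2, tricellulin, had 86.7, 90.2 and 39.5 at low and 696, 629.5 and 400.0 at high CHIR, also with no overlap, and a log2 difference of 3.03 (SE 0.47, limma adjusted p = 0.00271). Lsr, angulin-1, which recruits tricellulin to tricellular junctions, had 230.0, 256 and 149.7 at low and 1324, 1216 and 1359 at high CHIR. It was the most even of the genes called, with all 3 high-CHIR libraries within 1216 to 1359, and its log2 difference was 2.65 (SE 0.25, limma adjusted p = 0.000153). In the annotation 44.7% of the exon bases of Lsr also belong to other gene models, so its counts depend on how shared reads were assigned. Among those not called, Tjp1 (ZO-1) was at 537, 389 and 516 at low and 562, 498 and 408 at high CHIR (log2 difference 0.03) and Cgnl1, paracingulin, had a log2 difference of 0.06. F11r, Cgn, Tjp3 and Marveld3 had log2 differences of 0.19, 1.06, 1.67 and 1.92, and none passed (limma adjusted p 0.136 to 0.83).

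The protease matriptase and its inhibitors were the group in which all 3 genes rose. St14, matriptase, an epithelial membrane serine protease, had 156, 108 and 58.7 normalized counts at low and 951, 815 and 3689 at high CHIR. All 3 high-CHIR libraries were above the low-CHIR range and replicate 3 was the highest, at 4.18 times the mean of the other 2, and the log2 difference was 3.82 (SE 0.60, limma adjusted p = 0.00293). Spint1, the matriptase inhibitor HAI-1, had 167, 83.6 and 59.9 at low and 1172, 1083 and 353 at high CHIR, and its log2 difference was 3.01 (SE 0.54, limma adjusted p = 0.00603). Here replicate 3 was the lowest of the high-CHIR libraries, at 0.313 times the mean of the other 2. Spint2, HAI-2, had 356, 447 and 243 at low and 2614, 2806 and 1770.3 at high CHIR, a log2 difference of 2.79 (SE 0.25, limma adjusted p = 0.000129) with the groups well apart.

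Among the 4 simple keratins, Krt18 and Krt19 rose. Krt18 had 631, 258 and 319.8 normalized counts at low and 1529, 1181 and 1679.6 at high CHIR, and its log2 difference was 1.95 (SE 0.35, limma adjusted p = 0.00606). Krt19, a keratin of ducts and simple epithelia, had 242, 227 and 181 at low and 596, 431 and 917 at high CHIR, with a log2 difference of 1.52 (SE 0.29, limma adjusted p = 0.00798). Krt8, the usual filament partner of Krt18, had 503, 78.8 and 247 at low and 594, 470.4 and 315 at high CHIR. The groups overlapped, and the log2 difference of 1.05 (SE 0.57, limma adjusted p = 0.293) did not pass. Krt7 was at 17.1, 4.75 and 9.58 at low and 19, 2.79 and 11.2 at high CHIR, with no call.

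The polarity and apical genes were split. Crb3, the Crumbs protein of mammalian epithelia, had 124, 73.1 and 47.9 normalized counts at low and 844, 825 and 214 at high CHIR, a log2 difference of 2.79 (SE 0.53, limma adjusted p = 0.00747). Patj, a scaffold of the Crumbs complex, had 298, 258 and 297 at low and 879.5, 664 and 647 at high CHIR, and Pard6b, a Par6 protein of the Par complex, 90.7, 71.2 and 67.1 at low and 182, 230.3 and 141 at high CHIR. Neither overlapped, and the log2 differences were 1.35 (SE 0.23, limma adjusted p = 0.00409) for Patj and 1.25 (SE 0.27, limma adjusted p = 0.0138) for Pard6b. Pard3, Llgl2 and Crb2 were not called, with log2 differences of -0.23, 0.95 and -0.42. Prom1, prominin-1, a protein of apical membrane protrusions, had 1025, 1182 and 798 at low and 2653, 2222 and 1481 at high CHIR, with a log2 difference of 1.06 (SE 0.29, limma adjusted p = 0.0438). This was the smallest change called, and it was lost without any of the 3 low-CHIR libraries or high-CHIR replicates 1 or 2 (limma adjusted p 0.0714 to 0.174, log2 difference 0.87 to 1.19), as was that of Pard6b without low-CHIR replicates 2 or 3 (limma adjusted p 0.0504 to 0.066). Ap1m2, the epithelial adaptor subunit of basolateral sorting, did not overlap between the groups but missed the threshold, with a log2 difference of 2.17 (SE 0.66, limma adjusted p = 0.0654). The epithelial regulators Esrp1, Esrp2 and Grhl2 were low, at most 63.9 normalized counts at high CHIR, and none was called.

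The third high-CHIR library was unlike the other 2 in this gene list. Of the 15 genes called higher, it was the lowest of the 3 in 11 and the highest in 4, which were Lsr, Krt18, Krt19 and St14. Its level was 0.132 times the mean of the other 2 libraries for Cldn7 and 0.226 times for Cldn6, while it was 1.79 times that mean for Krt19. Without this library 22 genes were called higher, all 15 of the first count among them. The 7 added were Cdh1, with a log2 difference of 2.04 (limma adjusted p = 0.0367), Cldn3, with 1.67 (limma adjusted p = 0.0138), Cldn9, with 1.58 (limma adjusted p = 0.00018), Esrp2, with 2.04 (limma adjusted p = 0.0433), Marveld3, with 3.04 (limma adjusted p = 0.00459), Ap1m2, with 2.92 (limma adjusted p = 0.00273), and Llgl2, with 1.52 (limma adjusted p = 0.00917). Cldn5 was then still the only gene called lower. The share of all genes called without this library is not given here, so the added calls are not read as particular to the list. The cause was not tested.

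**Figure D2:**
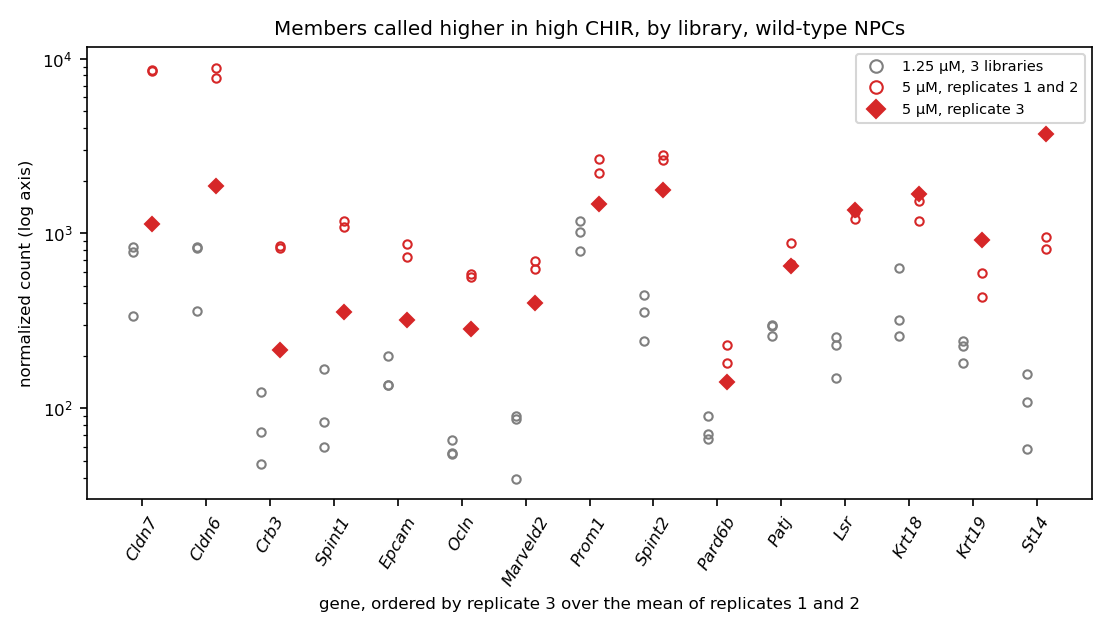
Normalized counts (log axis) of the 15 genes called higher at high CHIR in each wild-type low- and high-CHIR library, with high-CHIR replicate 3 drawn as diamonds. Replicate 3 is the lowest high-CHIR point for 11 genes and the highest for Lsr, Krt18, Krt19 and St14.

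Other junction and polarity genes outside the list, read for context, also moved in part. Of 41 tested, 9 rose and 2 fell, among them Cldn11 (log2 difference 5.19), the desmosomal genes Dsc2 (4.28) and Dsp (3.94), and Cdh3, P-cadherin (3.28). Of 19 mesenchymal genes tested, 8 fell and 0 rose, among them the repressor gene Snai2 (log2 difference -3.54), Cdh11 (-2.71), the repressor gene Zeb1 (-2.32) and Vim (-2.09). The list was read beside markers of ureteric epithelium, the other epithelium of these kidneys. The summed level of the 8 of 10 listed markers found in the table was 703 to 972 normalized counts at low and 1882 to 6008 at high CHIR, of which Gata3 and Hoxb7 made most, while Ret, a defining marker of ureteric tips, was at 0 to 5.99 at low and 2.79 to 4.48 at high CHIR. Calb1 was at 0 to 17.1 at low and 3.74 to 54.9 at high CHIR. The part of other cells in the values of the list was not tested.

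Without CHIR, none of the list passed the test against low CHIR. In wild-type NPCs 0 of the 39 genes were called between no and low CHIR, where 4.97% of the 17411 genes tested were called in either direction. At an unadjusted limma p under 0.05 there were 6 genes, and edgeR called 1 and DESeq2 called 2. For counts of this kind and those with a replicate block, here and below, the share over all genes is not given. They therefore do not show whether the list exceeds the rate over all genes. Lsr came nearest, with 139, 99.5 and 81.5 normalized counts without CHIR against 230.0, 256 and 149.7 at low CHIR. All 3 libraries without CHIR were below the low-CHIR range, and the log2 difference was -0.98 (SE 0.25, limma adjusted p = 0.0524). Cldn9 had 594, 558 and 601 without CHIR against 1482, 1216 and 921, again with no overlap, and a log2 difference of -1.02 (SE 0.33, limma adjusted p = 0.107). Prom1 (-0.84), Krt19 (0.66), Krt7 (1.88) and Cldn5 (1.37) were the others under an unadjusted 0.05, and Lsr and Cldn9 had the smallest adjusted p. Cdh1 had 211, 54.2 and 72.6 without CHIR, Cdh16 771, 299 and 270.3 and Epcam 92, 161 and 96.1, each overlapping its low-CHIR libraries. The median log2 difference of the 39 genes was -0.04 against 0.01 for all genes. Among the other junction and polarity genes, Cxadr and Ezr were called lower without CHIR (log2 differences -0.97 and -0.70), and 0 of the 19 mesenchymal genes were called.

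The same dose step was read in the 3 sets of control cells of the knockout experiments, in which 6 genes of the list, then 4, then 13 rose. In cells with the conditional allele and no Cre, 6 of 33 genes tested were higher at high CHIR and 0 lower, where 2.37% of 16780 genes were called higher and 3.83% lower. In the GFP-guide controls of the β-catenin experiment, 4 of 33 were higher and 2 lower, where 2.26% were called higher and 3.43% lower. In the GFP-guide controls of the Tcf/Lef experiment, which had the longer knockout period, 13 of 30 were higher and 0 lower, where 4.76% of 15878 genes were called higher and 5.11% lower. The median log2 difference of the genes of the list was 0.55, 0.70 and 1.19, against -0.00243, -0.00472 and 0.00359 for all genes tested. Esrp1, Esrp2, Grhl2, Krt7, Marveld3 and Tjp3 were under the expression filter in both experiments, and Cldn3, Cldn4 and Crb3 also in the Tcf/Lef experiment.

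Lsr, Krt18 and Spint2 were called higher in all 3 control sets and in wild type, out of 30 genes tested in all. Lsr had 71.1 and 30.2 normalized counts at low and 269 and 181 at high CHIR without Cre, and a log2 difference of 2.22 (SE 0.49, limma adjusted p = 0.0115). With the GFP guide it had 67.6 and 32.5 at low and 229 and 171 at high CHIR in the β-catenin experiment, a log2 difference of 2.06 (SE 0.49, limma adjusted p = 0.0202). In the Tcf/Lef experiment it had 15.9, 6.91 and 30.3 at low and 128, 185 and 275 at high CHIR, a log2 difference of 3.54 (SE 0.63, limma adjusted p = 0.0025). In each set all high-CHIR libraries lay above all low-CHIR libraries. Krt18 had 32.2 and 50.4 at low and 169 and 133 at high CHIR without Cre (log2 difference 1.87, SE 0.33, limma adjusted p = 0.00284). With the GFP guide it had 50.7 and 35.7 at low and 166 and 212 at high CHIR in the β-catenin experiment (log2 difference 2.11, SE 0.33, limma adjusted p = 0.00133) and 28.1, 4.93 and 15.6 at low and 105, 100.1 and 80.8 at high CHIR in the Tcf/Lef experiment (log2 difference 2.75, SE 0.47, limma adjusted p = 0.002). Its call held without any single library in all 3 sets. Spint2 had 137 and 66.8 at low and 305 and 329.9 at high CHIR without Cre (log2 difference 1.72, SE 0.41, limma adjusted p = 0.0193), and 162 and 109 at low and 398 and 501 at high CHIR with the GFP guide of the β-catenin experiment (log2 difference 1.74, SE 0.41, limma adjusted p = 0.0199). In the Tcf/Lef experiment the replicates of Spint2 spread widely, from 45.3, 138 and 210.1 at low to 449, 1254 and 791 at high CHIR (log2 difference 2.79, SE 0.81, limma adjusted p = 0.037). With the replicate number as a block its SE there was 0.31 (limma adjusted p = 6.92e-05).

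Some other genes of the list rose in part of the control sets. Prom1 had 391 and 428 normalized counts at low and 1168 and 993 at high CHIR without Cre, a log2 difference of 1.40 (SE 0.17, limma adjusted p = 0.000123), and its doses did not overlap. In the GFP-guide controls of the β-catenin experiment it had 600.1 and 674 at low and 1008 and 1058 at high CHIR, and its log2 difference of 0.70 (SE 0.17, limma adjusted p = 0.0209) passed the p threshold but not the size asked for. Patj had 224 and 217 at low and 539 and 450.3 at high CHIR without Cre (log2 difference 1.16, SE 0.19, limma adjusted p = 0.00134). Cldn6 had 87.7 and 44.9 at low and 145 and 176 at high CHIR without Cre, and its call (log2 difference 1.33, SE 0.38, limma adjusted p = 0.0485) was lost without any library but low-CHIR replicate 1. Cgnl1 went the other way in the GFP-guide controls of the β-catenin experiment, from 331 and 383 to 156 and 137 (log2 difference -1.28, SE 0.27, limma adjusted p = 0.0103), while without Cre it had 214 and 307 at low and 170.3 and 288 at high CHIR. This call was lost without replicate 2 at either dose (limma adjusted p 0.0834 to 0.1). Spint1 was called higher with this GFP guide as well, from 7.95 and 5.41 to 36.7 and 43.1 (log2 difference 2.43), and Cldn5 lower, from 19.9 and 10.8 to 3 and 1.91. By reads Cldn5 was 6 at high against 30 at low CHIR, a ratio of 0.162 per unit of depth (95% interval 0.0552 to 0.396, counting error only). Both calls were lost without any 1 of the 4 libraries (limma adjusted p 0.114 to 0.229 for Spint1 and 0.0746 to 0.262 for Cldn5). Without single libraries the count without Cre fell to 3 when high-CHIR replicate 1 was left out, and the count with the GFP guide fell from 6 to 1 without low-CHIR replicate 2, 2 without high-CHIR replicate 1 and 1 without high-CHIR replicate 2. Without Cre, the call of Lsr was lost without either of 2 of the 4 libraries (limma adjusted p 0.076 to 0.108). That of Spint2 was lost without any 1 of 3 (limma adjusted p 0.082 to 0.113). With the GFP guide each was lost without any 1 of 3 libraries (limma adjusted p 0.0796 to 0.168 for Lsr and 0.0665 to 0.163 for Spint2).

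The GFP-guide controls of the Tcf/Lef experiment had the most calls of the 3 sets. Marveld2 had 8.56, 3.95 and 11.2 normalized counts at low and 89, 232 and 155 at high CHIR, with no overlap and a log2 difference of 4.15 (SE 0.54, limma adjusted p = 0.000303). Cldn6 had 26.9, 3.95 and 12.1 at low and 63.5, 215 and 153 at high CHIR, a log2 difference of 3.40 (SE 0.60, limma adjusted p = 0.00244), and Cldn7 30.6, 29.6 and 21.6 at low and 92.3, 198 and 141 at high CHIR, a log2 difference of 2.31 (SE 0.31, limma adjusted p = 0.000369). Neither claudin overlapped between the doses. Cldn9, Cgn, Spint1, Prom1, Llgl2, Pard6b and Patj were also called higher, with log2 differences from 1.18 (Patj) to 2.89 (Spint1). With the replicate number as a block, which the shared dates of these libraries allow, Ocln was added (log2 difference 1.36, limma adjusted p = 0.0327) to make 14. Cldn5 was not lower here, with 2.45, 2.96 and 0.865 at low and 3.3, 14.2 and 5.32 at high CHIR, and 23 against 6 reads gave a ratio of 3.64 (95% interval 1.44 to 10.9, counting error only, limma adjusted p = 0.154). In the fit without the block, the calls of Cldn9, Spint2, Llgl2 and Pard6b were lost without 1 library or more (limma adjusted p 0.0674 to 0.129, 0.0794 to 0.15, 0.0544 to 0.0751 and 0.0857 to 0.171). With the block and all libraries each was called, with limma adjusted p of 3.17e-06, 6.92e-05, 0.0115 and 0.0251 in this order.

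The cadherins and Epcam were not called in any control set. Cdh1 was low, at 11.1 and 33 normalized counts at low and 22.1 and 20.7 at high CHIR without Cre, 37.8 and 45.5 at low and 9.74 and 17.2 at high CHIR with the GFP guide of the β-catenin experiment, and 12.2, 8.88 and 9.51 at low and 11.5, 34.4 and 37.2 at high CHIR in the Tcf/Lef experiment. Its log2 differences were 0.14, -1.60 and 1.21, with limma adjusted p of 0.949, 0.365 and 0.112, and the doses did not overlap in the second set, where high CHIR was the lower. Epcam had 98.8 and 62.3 at low and 101 and 102 at high CHIR without Cre, 76.5 and 114 at low and 71.9 and 151 at high CHIR with the GFP guide of the β-catenin experiment, and 349.8, 432 and 178 at low and 162, 348 and 192 at high CHIR in the Tcf/Lef experiment. Its doses did not overlap without Cre but did in both GFP-guide sets, and its limma adjusted p was 0.558 or more. Cdh16 had 74.4 and 76 at low and 101 and 90.3 at high CHIR without Cre, 72.5 and 60.6 at low and 36.7 and 107 at high CHIR with the GFP guide, and 45.3, 12.8 and 19.9 at low and 38.7, 6.07 and 21.3 at high CHIR in the Tcf/Lef experiment, with no call. Krt19, which rose in wild type, had log2 differences of -0.77, -0.82 and -0.16, none called. Of the 15 genes that rose in wild type, 15, 15 and 14 were tested in the 3 sets in the order above, 6, 4 and 10 were called higher, and 13, 14 and 12 had a positive difference. Whether the responses differ between wild type and the controls was not tested, since the tables were normalized separately.

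**Figure D3:**
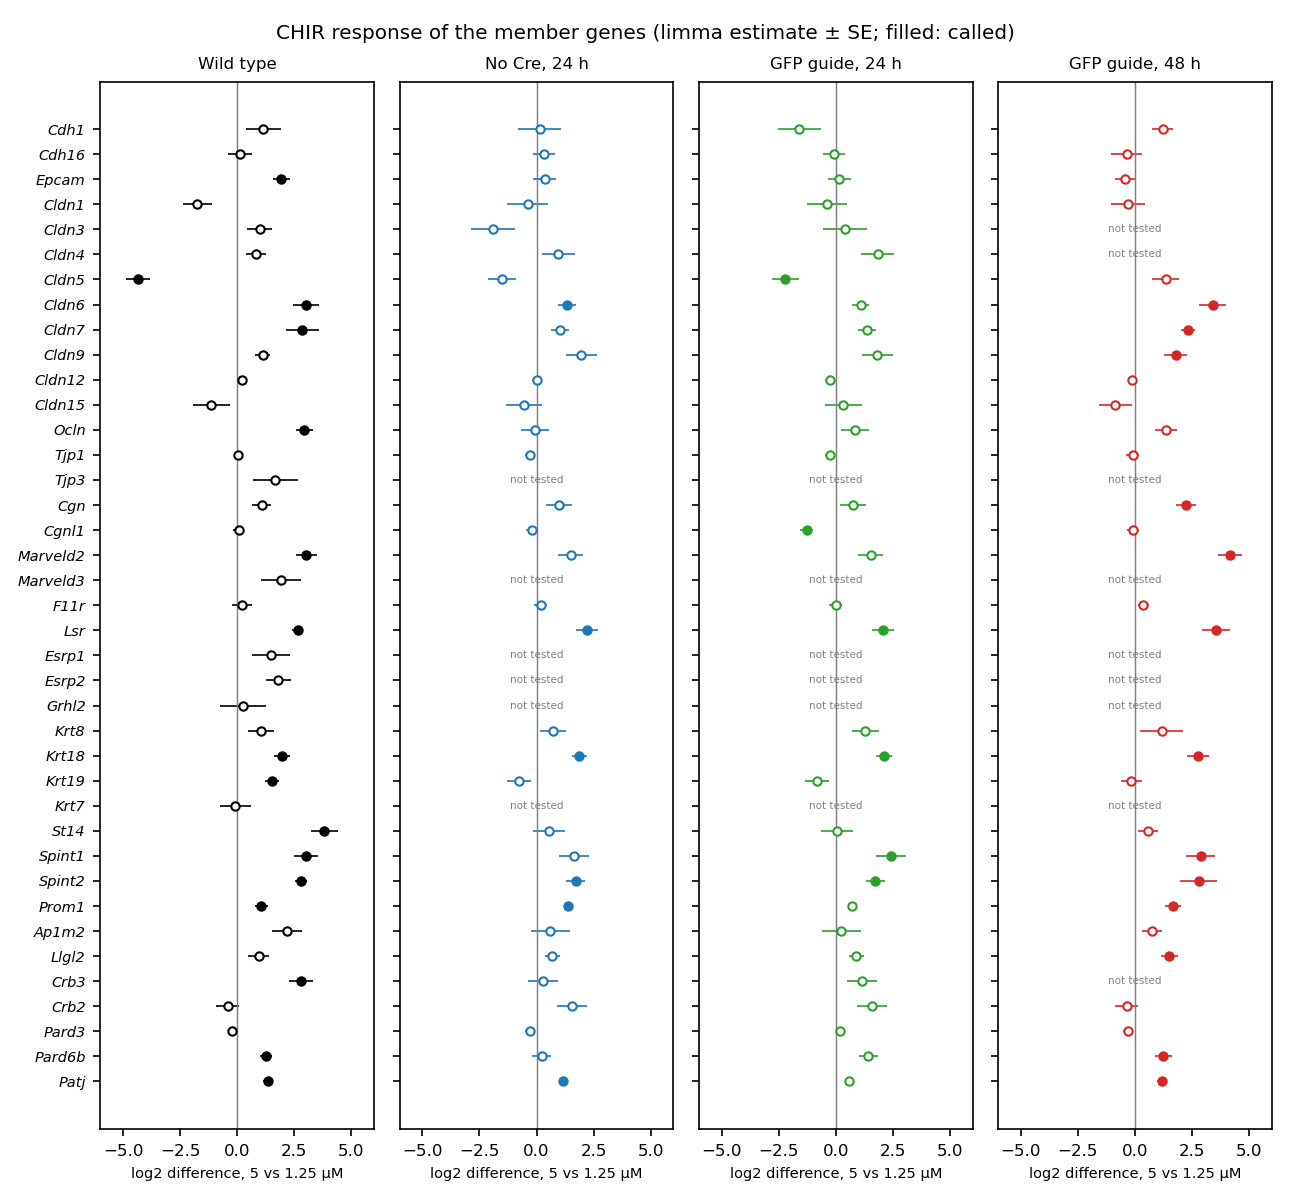
Log2 difference between high and low CHIR (limma, ± SE) for each gene of the list tested, in wild type and in the 3 sets of control cells. Filled points are called (adjusted p under 0.05 and a difference of at least 1), 16 in wild type and 6, 6 and 13 in the controls.

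Other junction genes and mesenchymal genes also moved in the controls. Of the other junction and polarity genes, 4 rose and 2 fell of 36 tested without Cre, 4 rose and 2 fell of 36 with the GFP guide of the β-catenin experiment, and 11 rose and 2 fell of 35 in the Tcf/Lef experiment. Ovol1, a transcription factor of epithelia (3.46, 4.03 and 4.14), and Cdh3 (2.63, 1.54 and 3.54) were called higher in all 3 on the log2 scale. Mesenchymal genes fell in 3 of 18, 3 of 18 and 5 of 18 tests, and rose in 0, with Zeb1 at -1.93, -1.73 and -2.86 and Snai2 at -1.41, -1.56 and -3.14. Tcf4 of the same list passed the p threshold upward but not the size asked for. Its log2 difference was 0.92 without Cre (limma adjusted p = 0.00152) and 0.62 with the GFP guide of the β-catenin experiment (limma adjusted p = 0.021). Vim, lower in wild type, had differences of 0.35 and 0.47 in these sets, not called.

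At low CHIR, no gene of the list passed the test on removal of β-catenin. With Cre against no Cre, 0 of 33 genes were called, where 0.328% of the 16780 genes tested were, and 4 genes had an unadjusted limma p under 0.05. edgeR and DESeq2 called 0. With Ctnnb1 guides against the GFP guide, 0 of 33 were called, where 0.0536% of genes tested were, and 5 had an unadjusted limma p under 0.05, and 0 were called by edgeR and DESeq2, in which the GFP-guide arm held 1 library. The smallest adjusted p over the list was 0.181 for Cre and 0.766 for the guides, both for Krt18. Krt18 had 99.4 and 87.5 normalized counts with Cre against 32.2 and 50.4 without, and 106 and 98.3 with Ctnnb1 guides against 50.7 and 35.7 with the GFP guide. In both, the libraries with β-catenin removed were the higher ones, but the log2 differences of 1.19 and 1.24 did not pass. Cdh1 had 26.9 and 21.9 with Cre and 15.5 and 46.8 with the guides, Epcam 83.8 and 55.4 with Cre and 69.5 and 166 with the guides, and Cdh16 63.1 and 73.4 with Cre and 75 and 103 with the guides, with a limma adjusted p of 0.935 or more for each.

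At high CHIR, Cre lowered 4 genes of the list and raised 1 of 33 tested, where 2.75% of genes were called lower and 5.9% higher. Cldn9 fell most, with 441 and 139.6 normalized counts with Cre against 1892 and 1162 without. The groups did not overlap, and the log2 difference was -2.57 (SE 0.67, limma adjusted p = 0.0277). Lsr had 66.6 and 46.1 with Cre against 269 and 181, also apart, with a log2 difference of -1.97 (SE 0.49, limma adjusted p = 0.0217). Cldn6 had 67.6 and 58.3 against 145 and 176, a log2 difference of -1.33 (SE 0.38, limma adjusted p = 0.0458), and Prom1 665 and 601 against 1168 and 993, a log2 difference of -0.77 (SE 0.17, limma adjusted p = 0.0102). For all 4 genes the high-CHIR libraries without Cre lay above the low-CHIR libraries without Cre. Cldn5 rose, with 62.6 and 52.2 normalized counts with Cre against 5.52 and 6.22 without, a log2 difference of 3.08 (SE 0.60, limma adjusted p = 0.00541), and its call held without any 1 of the 4 libraries. By reads it was 105 against 12, a ratio of 9.89 per unit of depth (95% interval 5.43 to 19.8, counting error only). Marveld2 (log2 difference -1.87, SE 0.55, limma adjusted p = 0.0504), Spint2 (log2 difference -1.38, SE 0.41, limma adjusted p = 0.0548) and Llgl2 (log2 difference -1.12, SE 0.34, limma adjusted p = 0.0608) were lower but missed the threshold. The median log2 difference of the list was -0.29 against -0.02 over all genes. With 2 libraries an arm, the count of 5 fell to 1 without replicate 1 of the controls, 3 without their replicate 2, 3 without Cre replicate 1 and 1 without Cre replicate 2. The limma adjusted p was 0.0623 to 0.23 for Cldn9, 0.0501 to 0.163 for Lsr, 0.111 to 0.207 for Cldn6 and 0.0743 to 0.103 for Prom1 where their calls were lost.

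Ctnnb1 guides at high CHIR raised 3 genes of 33 and lowered 0, where 3.44% of genes were called higher and 1.64% lower. Cldn5 had 68.1 and 53.7 normalized counts with Ctnnb1 guides against 3 and 1.91 with the GFP guide, a log2 difference of 4.17 (SE 0.60, limma adjusted p = 0.00123). By reads this was 135 against 6, a ratio of 24.1 (95% interval 10.8 to 66.8, counting error only), and the call held without any 1 of the 4 libraries. Krt19 had 106 and 258 against 19.5 and 47.9, a log2 difference of 2.39 (SE 0.51, limma adjusted p = 0.0163), and Cgnl1 372 and 333 against 156 and 137, a log2 difference of 1.26 (SE 0.27, limma adjusted p = 0.0168). Neither overlapped, but without guide replicate 2 or GFP replicate 1 the count was 1, with Cldn5 alone left, and the limma adjusted p was 0.154 to 0.229 for Krt19. For Cgnl1 it was 0.0636 to 0.156 without any 1 of the 4 libraries. The 4 genes that fell with Cre were also below the controls here without passing the test. Lsr had 91.2 and 69.5 against 229 and 171 (log2 difference -1.31, SE 0.49, limma adjusted p = 0.152), Cldn9 1253 and 747 against 2383 and 2484 (log2 difference -1.33, SE 0.67, limma adjusted p = 0.298), Cldn6 58.9 and 82.7 against 152 and 124 (log2 difference -0.97, SE 0.38, limma adjusted p = 0.175) and Prom1 771 and 914 against 1008 and 1058 (log2 difference -0.30, SE 0.17, limma adjusted p = 0.352). Krt19 with Cre had 108 and 120.2 against 28.5 and 48.8, and its log2 difference of 1.58 (SE 0.51, limma adjusted p = 0.0771) missed the threshold. Whether the Cre and guide effects differ was not tested.

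Markers of other cells moved beside Cldn5. The summed level of 8 endothelial markers at high CHIR was 678 to 763 normalized counts with Cre against 227 to 285 without, and 975 to 976 with Ctnnb1 guides against 383 to 418 with the GFP guide. Egfl7 and Plvap made most of these sums, while the defining endothelial genes Cdh5, Kdr and Tie1 were between 0 and 21.9 in all 8 libraries. Plvap was itself called higher with Cre (log2 difference 2.51, SE 0.44, limma adjusted p = 0.00246) and with Ctnnb1 guides (log2 difference 2.48, SE 0.44, limma adjusted p = 0.00488). The podocyte marker Synpo was called higher with Cre, at 46.4 and 52.2 against 2.76 and 1.04 (log2 difference 4.18, SE 0.65, limma adjusted p = 0.00105), and was at 23 and 27.3 with the guides against 11.2 and 1.91 (log2 difference 2.13, SE 0.65, limma adjusted p = 0.0799). The blood cell marker Fcer1g was called higher with Cre, at 27.3 and 139.6 against 0 and 4.15 (log2 difference 4.80, SE 1.13, limma adjusted p = 0.0163). Between high and low CHIR without Cre, Plvap, Synpo and Fcer1g were called lower (log2 differences -3.67, -3.64 and -4.11). With the GFP guide only Plvap of these was called lower (log2 difference -2.53, SE 0.44, limma adjusted p = 0.00278). The summed level of the 5 of 6 podocyte markers found in the table was 219 to 290.2 with Cre against 111 to 315 without, and 115 to 119.7 with the guides against 118 to 160.4. That of the 5 of 8 blood markers was 49.5 to 146 with Cre against 4.6 to 5.19 without, and 28.2 to 62.6 with the guides against 14.2 to 18.2. Mesenchymal genes outside the list rose in 8 of 18 tests and fell in 1 with Cre, and rose in 3 and fell in 1 with the guides, with Zeb1 at 2.08 and 1.40. Other junction and polarity genes fell in 5 and rose in 3 of 36 with Cre, and fell in 3 and rose in 1 with the guides, with Cdh3 at -2.43 and -1.42 and Amot, a binder of junctions and Yap, at 2.11 and 1.90. The part of other cells in the Cldn5 values was not tested. The cadherins and Epcam had no call. Cdh1 was at 29.3 and 26.7 with Cre and 2.76 and 51.1 with the guides at high CHIR, Epcam at 72.7 and 55.9 with Cre and 47 and 105 with the guides, and Cdh16 at 143 and 81.4 with Cre and 70.9 and 151 with the guides.

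A direct test of whether removal changed the response to CHIR called 1 of 33 genes with Cre and 0 with the guides. For Cre, where 0.995% of genes were called in either direction, the gene called was Prom1, with an interaction of -1.16 (SE 0.24, limma adjusted p = 0.03) on the log2 scale. Its high minus low difference was 1.40 without Cre and 0.23 with Cre, from 569 and 509 normalized counts at low to 665 and 601 at high CHIR with Cre. The edgeR and DESeq2 fits held only 1 library of the Cre arm at high CHIR, so they are no replicated check of this value. It was lost without 6 of the 8 libraries, all but the no-Cre replicate 2 at either dose, with limma adjusted p 0.0638 to 0.126. For the guides, where 0.518% of genes were called, 7 genes of the list had an unadjusted limma p under 0.05, edgeR called 0 and DESeq2 1, with 1 GFP-guide library at low CHIR in those fits. Krt18 had the smallest adjusted p there, with a log2 interaction of -2.02 (SE 0.47, limma adjusted p = 0.107). The interaction of Cldn5 was 2.77 with Cre and 2.70 with the guides (limma adjusted p 0.228 and 0.385).

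Removing the 4 Tcf/Lef factors gave few calls in the list, near the share called over all genes. At low CHIR 0 of 30 genes were called, where 0.0063% of 15878 genes tested were (1 gene), and 4 of the list had an unadjusted limma p under 0.05, with 0 called by edgeR and DESeq2. With the replicate block Cldn9 was called higher (log2 difference 1.21, limma adjusted p = 0.0145), with 554 and 1457 normalized counts in the QKO against 220.1, 369 and 651 with the GFP guide. The QKO values overlapped the controls, but each was above the control of its own number, which were 220.1 and 651.

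At high CHIR the QKO raised 1 of the 30 genes and lowered 0, where 2.05% of genes were called higher and 0.491% lower. It was Cldn5, with 47.8, 81 and 45.3 normalized counts in the QKO against 3.3, 14.2 and 5.32 with the GFP guide. All 3 QKO libraries were above all 3 controls, and the log2 difference was 2.94 (SE 0.58, limma adjusted p = 0.0218). By reads this was 180 against 23, a ratio of 7.81 (95% interval 5.04 to 12.6, counting error only). The call was lost without GFP replicate 1 or 3 or any of the QKO libraries (limma adjusted p 0.0515 to 0.124, log2 difference 2.54 to 3.09). The count was then 0, except that Krt19 was called higher without GFP replicate 1 (log2 difference 1.79, limma adjusted p = 0.0379). The endothelial marker sum was 496 to 823 in the QKO and 328 to 456 in the controls, with Cdh5 at 0 to 11.3 and 0 to 3.3. Its members did not move together. Mean Plvap was 384 in the QKO and 86.3 in the controls, and mean Egfl7 221 and 148. Mean Tek went the other way, at 38.4 and 139, and mean Pecam1 was 19.5 and 19.8. The summed level of 8 stromal markers was 314 to 14103 over the 11 libraries and was highest in replicate 1 of every arm, and the part of these cells was not tested. With the replicate block 3 genes were called, Cldn5 (limma adjusted p = 0.0033) and Cldn15, with 93.9, 35.3 and 14.5 against 16.5, 5.06 and 3.19 (log2 difference 2.30, limma adjusted p = 0.0062), as higher although its groups overlapped, and Cldn7, with 60.8, 74.8 and 66.5 against 92.3, 198 and 141 (log2 difference -1.02, limma adjusted p = 0.0487), as lower.

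Several genes called higher with CHIR in the controls had lower means in the QKO at high CHIR, without passing the test. The control libraries that gave those calls are also the ones compared here, so a lower QKO mean is partly built into this choice of genes. Cldn6 had 35.6, 56.1 and 55.9 normalized counts in the QKO at high CHIR, below all 3 controls at 63.5, 215 and 153, and a log2 difference of -1.39 (SE 0.60, limma adjusted p = 0.318). Patj had 217, 341 and 357 against 457, 452 and 447, also with no overlap, and a log2 difference of -0.60 (SE 0.20, limma adjusted p = 0.175). Marveld2 had 27.8, 97.6 and 73.3 against 89, 232 and 155, and Lsr 39.1, 78.9 and 196 against 128, 185 and 275, both overlapping, with log2 differences of -1.32 (SE 0.54, limma adjusted p = 0.283) and -1.13 (SE 0.63, limma adjusted p = 0.457). Each QKO library of Marveld2 and Lsr was below the control of its own number. With the replicate block the limma adjusted p was 0.109 for Marveld2, 0.0926 for Lsr, 0.0982 for Patj and 0.214 for Cldn6, none passing. Spint2, at 163, 741 and 909 against 449, 1254 and 791, and Prom1, at 595, 951 and 1112 against 857, 1103 and 1555, overlapped between QKO and control and were lowest in replicate 1 of each. By replicate number, Prom1 was below its control each time, while Spint2 was above it in replicate 3. Their limma adjusted p with the block was 0.184 for Prom1 and 0.228 for Spint2. The median log2 difference of the list was -0.24 against 0.00088 over all genes, and 23 of 30 were negative. Cdh1 had 19.1, 10.4 and 9.64 in the QKO at high and 11.6 and 12.7 at low CHIR, Epcam 100, 206 and 296 at high and 293 and 396 at low CHIR, and Cdh16 34.8, 10.4 and 11.6 at high and 36 and 46.9 at low CHIR, none called against its controls.

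The test of a changed CHIR response in the QKO called 0 of 30 genes, where 0.126% of genes were called, with 7 at an unadjusted limma p under 0.05 and 0 by edgeR and DESeq2. With the replicate block Cldn9 was called, with an interaction of -1.46 (limma adjusted p = 0.0082). Outside the list, Zeb1 (1.57) and Sparc (0.68) were higher in the QKO at high CHIR and Cdh3 (-1.70) was lower on the log2 scale, of 18 mesenchymal and 35 other junction genes tested. The plot of single genes by arm puts the knockouts side by side.

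**Figure D4:**
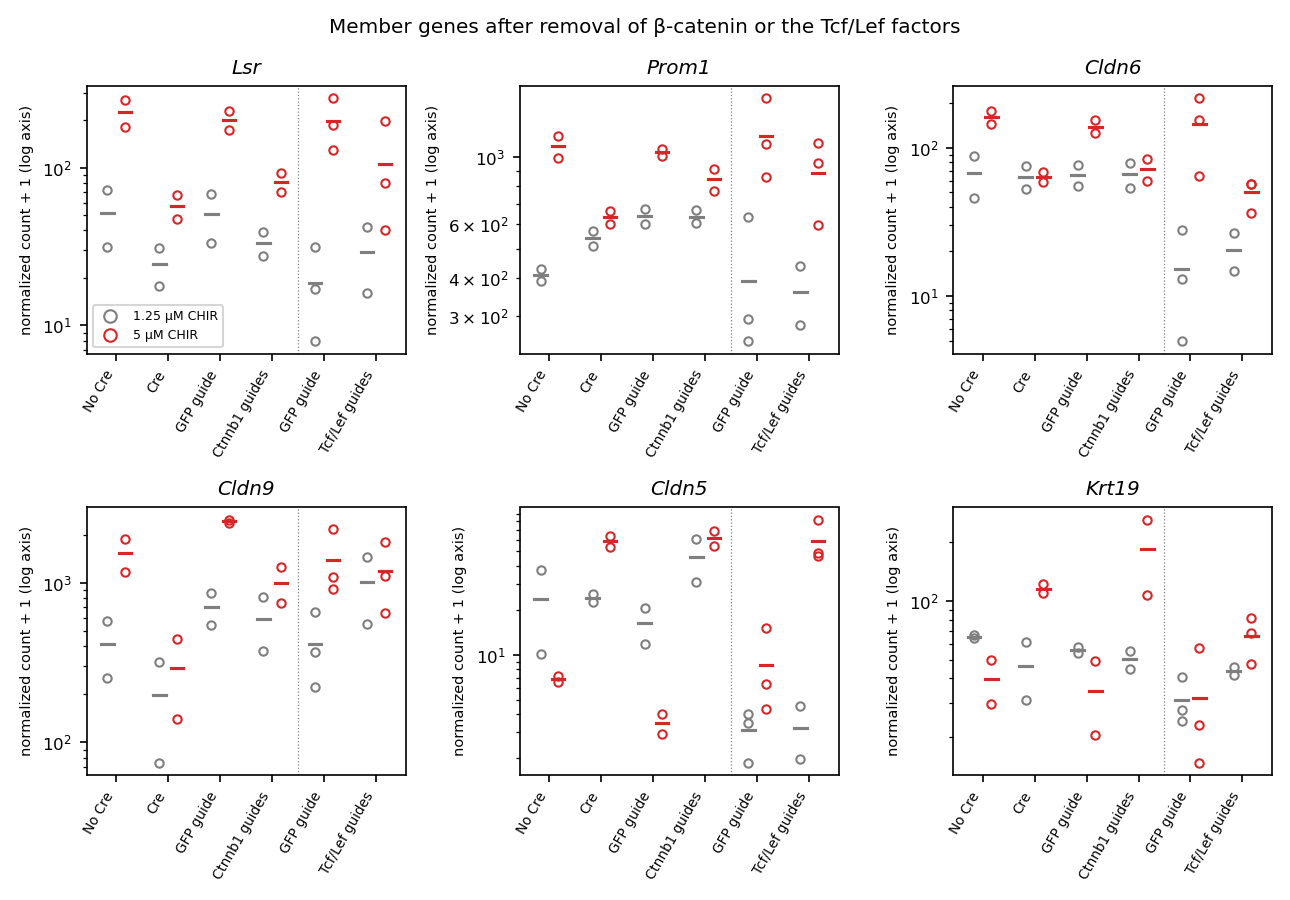
Normalized counts (log axis, plus 1) of Lsr, Prom1, Cldn6, Cldn9, Cldn5 and Krt19 in every library of the β-catenin and Tcf/Lef experiments, by arm and CHIR dose, with each point 1 library. At high CHIR, Cldn5 is at 45.3 to 81.0 in the libraries with β-catenin or Tcf/Lef removed against 1.91 to 14.2 in their controls. In the Tcf/Lef experiment it passed the expression filter only through the QKO libraries at high CHIR.

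The difference between high and low CHIR within each removal arm is given for a few genes as a description, since these arms share libraries with the tests above. For Lsr it was 2.22 without Cre and 1.27 with Cre, 2.06 with the GFP guide and 1.29 with Ctnnb1 guides, and 3.54 with the GFP guide and 1.72 in the QKO on the log2 scale. For Krt18 it was 1.87 without and 0.21 with Cre, 2.11 and 0.10 with the GFP and Ctnnb1 guides, and 2.75 and 1.07 in the Tcf/Lef experiment. For Marveld2 it was 1.5 without and 0.69 with Cre, 1.53 and -0.13 with the GFP and Ctnnb1 guides, and 4.15 and 2.93 in the Tcf/Lef experiment. Krt19 had the larger difference in the removal arm each time, at -0.77 and 1.40, -0.82 and 1.74, and -0.16 and 0.55. None of the pairs given passed the test of the difference itself.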

How the data were processed

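Total RNA of the primary NPC cultures was made into libraries and sequenced as paired reads by the authors. The submitters' processing notes name STAR, featureCounts of Subread, Salmon and DESeq2 with GRCm38, without saying which made these tables. The values used are normalized counts, a signal deposited by the authors: reads per gene divided by a DESeq2 size factor per library. The size of 1 read was recovered from each library (100% of values whole within 0.05 reads). edgeR 4.0.16 and DESeq2 1.42.0 were run on those reads without 3 libraries in which 1 read is worth about 1 normalized count (GFP guide at low CHIR replicate 1 and Cre at high CHIR replicate 1, which left 1 library in each of those arms, and GFP guide at high CHIR replicate 2 of the Tcf/Lef experiment). Columns of 8 deposited tables of the authors' comparisons (fold changes and p-values, with 50 columns of per-library values) were not used.

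The main test was limma 3.58.1 in R 4.3.3, with trend, on log2(normalized count + 1), with all libraries of a table in 1 fit, genes with a mean of at least 10, and Benjamini-Hochberg adjustment over all genes tested. The log2 scale with a pseudocount understates changes of low genes. Fits were tested on simulated data. There were 14 comparisons. Alternatives were a pseudocount of 0.5, no filter, TMM, edgeR, DESeq2, only the groups compared, a replicate block and leaving out each library. Named genes were Cdh1, Cdh16 and Epcam and, per comparison, up to 6 raised and 6 lowered members past the test, with a mean of at least 50 and groups that do not overlap; others named were chosen after their values were seen. From the other lists at most 4 called genes were to be named per comparison. The members and lists were chosen with earlier results of these data known. Of 177 symbols in all lists, 176 matched.

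In the Tcf/Lef experiment replicate numbers mark shared dates in the headers of the unused tables, and deviations of same-numbered libraries correlated at 0.214 to 0.637, so the block is used there as a paired fit. In wild type the correlations were -0.0156 to 0.272 and the β-catenin experiments have 2 replicates, so numbers were not taken as pairs. Read intervals cover counting error only.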

Additional observations from a re-analysis of the deposited data

Results flagged for a closer look

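Prom1 was the only gene of the list whose response to CHIR was found to differ between groups by a test of the difference itself in the fit without a replicate block; with the block, Cldn9 was also called in the Tcf/Lef experiment (-1.46, limma adjusted p = 0.0082), and 2 genes were called with Ctnnb1 guides, where the numbers are only shared. The interaction between Cre and CHIR dose was -1.16 on the log2 scale (SE 0.24, limma adjusted p = 0.03). Prom1 had 391 and 428 normalized counts at low and 1168 and 993 at high CHIR without Cre, and 569 and 509 at low and 665 and 601 at high CHIR with Cre. The same interaction with Ctnnb1 guides was -0.29 (SE 0.24, limma adjusted p = 0.879) and with Tcf/Lef guides -0.38 (SE 0.54, limma adjusted p = 1).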

How the results depend on the processing

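Counts of genes of the list called were compared across settings. The count at high against low CHIR in wild type was 16 as reported and 15 to 21 under the other settings, and with the GFP guide of the Tcf/Lef experiment 13 and 9 to 14. Between no and low CHIR the count was 1 with TMM, 1 with the replicate block, 1 with edgeR, 2 with DESeq2 and 2 with only the groups compared, against 0. Without Cre it was 3 with only the groups compared, against 6. With the GFP guide of the β-catenin experiment it was 3 with edgeR and 11 with the replicate block, against 6. With Cre at high CHIR it was 3 with only the groups compared and 11 with the block, against 5, and at low CHIR 1 with the block, against 0. With Ctnnb1 guides at high CHIR it was 6 with DESeq2, 8 with only the groups compared and 8 with the block, against 3. For the Cre interaction it was 0 with no filter, 0 with edgeR, 0 with only the groups compared and 2 with DESeq2, against 1, and for the guide interaction 1 with DESeq2 and 2 with the block, against 0. With the replicate block the QKO counts were 1 at low CHIR, 3 at high CHIR and 1 for the interaction, against 0, 1 and 0, and with the GFP guide 14 against 13; the pairing changed no other call there. With edgeR and DESeq2 the Cre arm at high CHIR and the GFP-guide arm of the β-catenin experiment at low CHIR held 1 library each, assumed to vary like the other groups. The cause of these shifts was not tested.

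Leaving out 1 library gave counts of 13 to 23 for wild type at high CHIR, 0 to 2 for no CHIR (2 without no-CHIR replicate 1 and 1 without low-CHIR replicate 3), 3 to 6 without Cre, 1 to 4 and 9 to 13 for the GFP-guide controls, 1 to 3 for Cre, 1 to 2 for Ctnnb1 guides and 0 to 1 for the QKO at high CHIR, 0 to 2 for the Cre interaction (2 without the no-Cre low-CHIR replicate 2), and 0 to 0 for the remaining comparisons. In the β-catenin experiments the numbers are only shared, with correlations of 0.116 to 0.518 between same-numbered libraries, and the block moved the counts as given. Of 892 settings of single named genes, 823 kept direction and side of the threshold, 67 kept direction but missed it, 2 newly passed and 0 reversed. Depth limits genes below about 10 normalized counts, among them Esrp1, Esrp2, Grhl2, Krt7, Marveld3 and Tjp3.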
